A study of Homo sapiens with 13 samples.

Results

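The regions described here are the peaks that lie on human chromosomes 16, 17, 19 and 22, which carry many genes for their length. A peak is a genomic interval that the authors reported as enriched in captured DNA. All peaks of the 4 deposited lists on these chromosomes were taken, whatever their score, which gave 569 of 6064 peaks on the human build hg19. The chromosomes 4, 13 and 18, which carry few genes, held 736 peaks and were the comparison.

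The study applied COSMIC-seq to H1 cells (a long-established line of human embryonic stem cells) treated for 24 h. Compound 2 and compound 4 were each given at 20 nM and at 400 nM, with 2 libraries per group. Each compound had 1 list labelled 400 nM and 1 list with a compound but no dose in its name, called undosed here. Which libraries the undosed lists hold was not stated, and no list had a replicate list or a known read depth.

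Both compounds are polyamides, synthetic molecules that lie in the minor groove of DNA and read its base sequence. COSMIC-seq ties them to DNA through a light-activated psoralen and pulls the bound fragments out through biotin. Gene-rich chromosomes are known to be rich in G and C, to replicate early and to lie towards the inside of the nucleus, while gene-poor ones are richer in A and T and lie nearer the nuclear rim.

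The names of the chromosome sets were checked in RefSeq tables of the assembly GRCh38.p14. Chromosomes 16, 17, 19 and 22 had 3925 protein-coding genes, or 13.9 per Mb, and chromosomes 4, 13 and 18 had 1378, or 3.58 per Mb. Chromosomes 19, 17, 16 and 22 ranked 1, 2, 4 and 5 among 22 autosomes by genes per Mb, and chromosomes 4, 18 and 13 ranked 20, 21 and 22. The promoters in those tables had a mean GC content of 61.9% ± 11.1 (SD, n = 5517 promoters) on the gene-dense and 54.2% ± 14.4 (SD, n = 3290) on the gene-poor chromosomes. The gene positions of that assembly were not set against the peaks, whose build differs, so no peak is tied to a gene here.

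The first question was how many peaks each list had per Mb on the gene-dense chromosomes. The 400 nM compound 4 list had more of them per Mb than on the gene-poor chromosomes. It had 204 gene-dense peaks and 148 gene-poor ones, or 0.723 per Mb (exact 95% Poisson interval 0.628 to 0.830) against 0.385 per Mb (0.325 to 0.452). The ratio of these densities was 1.88 (exact 95% binomial interval 1.51 to 2.34), and it passed a two-sided exact binomial test (p = 1.73e-08 after adjustment over the 4 lists). The chromosomes were chosen with earlier results of these data known, so this p and those below do not rest on a contrast picked blind. These chromosomes hold 9.79% of the autosomal length and had 12.9% of this list (exact 95% interval 11.3 to 14.7%). The latter share is of all 1581 peaks, those outside the autosomes included.

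None of the other lists passed the test. The undosed compound 4 list had 255 peaks on the gene-dense and 412 on the gene-poor chromosomes, or 0.904 against 1.07 per Mb, a ratio of 0.844 (0.719 to 0.989; exact binomial test, adjusted p = 0.0541). For undosed compound 2 there were 35 and 73 peaks, or 0.124 against 0.190 per Mb, a ratio of 0.654 (0.424 to 0.991; exact binomial test, adjusted p = 0.0541). The 400 nM compound 2 list had 75 and 103 peaks, or 0.266 against 0.268 per Mb, a ratio of 0.993 (0.727 to 1.35; exact binomial test, adjusted p = 1). These tests treat peaks as independent draws, so they compare places within a list and not cultures. The intervals cover counting error only and are not adjusted, so those of the undosed lists end just below 1 although the adjusted tests did not pass.

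Close-lying peaks and stretches beside centromeres were then taken out. With peaks closer than 1 kb merged, the 400 nM compound 4 list kept 172 gene-dense and 136 gene-poor regions, a ratio of 1.72 (1.37 to 2.18). Without chromosome 16 from 33 to 47 Mb and chromosome 19 from 24 to 29 Mb the ratio was 1.85 (1.48 to 2.31), and with both changes it was 1.70 (1.34 to 2.15; exact binomial test, adjusted p = 2.35e-05). It was 2.13 (1.69 to 2.70) without the 10 Mb at each chromosome end, a setting added after seeing the data.

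With both changes, the ratios were 0.859 (0.725 to 1.02) for undosed compound 4, 0.742 (0.469 to 1.15) for undosed compound 2 and 0.854 (0.609 to 1.19) for 400 nM compound 2. Merging within 1 kb alone took the undosed compound 4 value past the threshold, at 0.812 (0.686 to 0.960; exact binomial test, adjusted p = 0.0275). Without the windows beside centromeres, and with no merging, it did not pass (0.894; exact binomial test, adjusted p = 0.222).

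**Figure D1:**
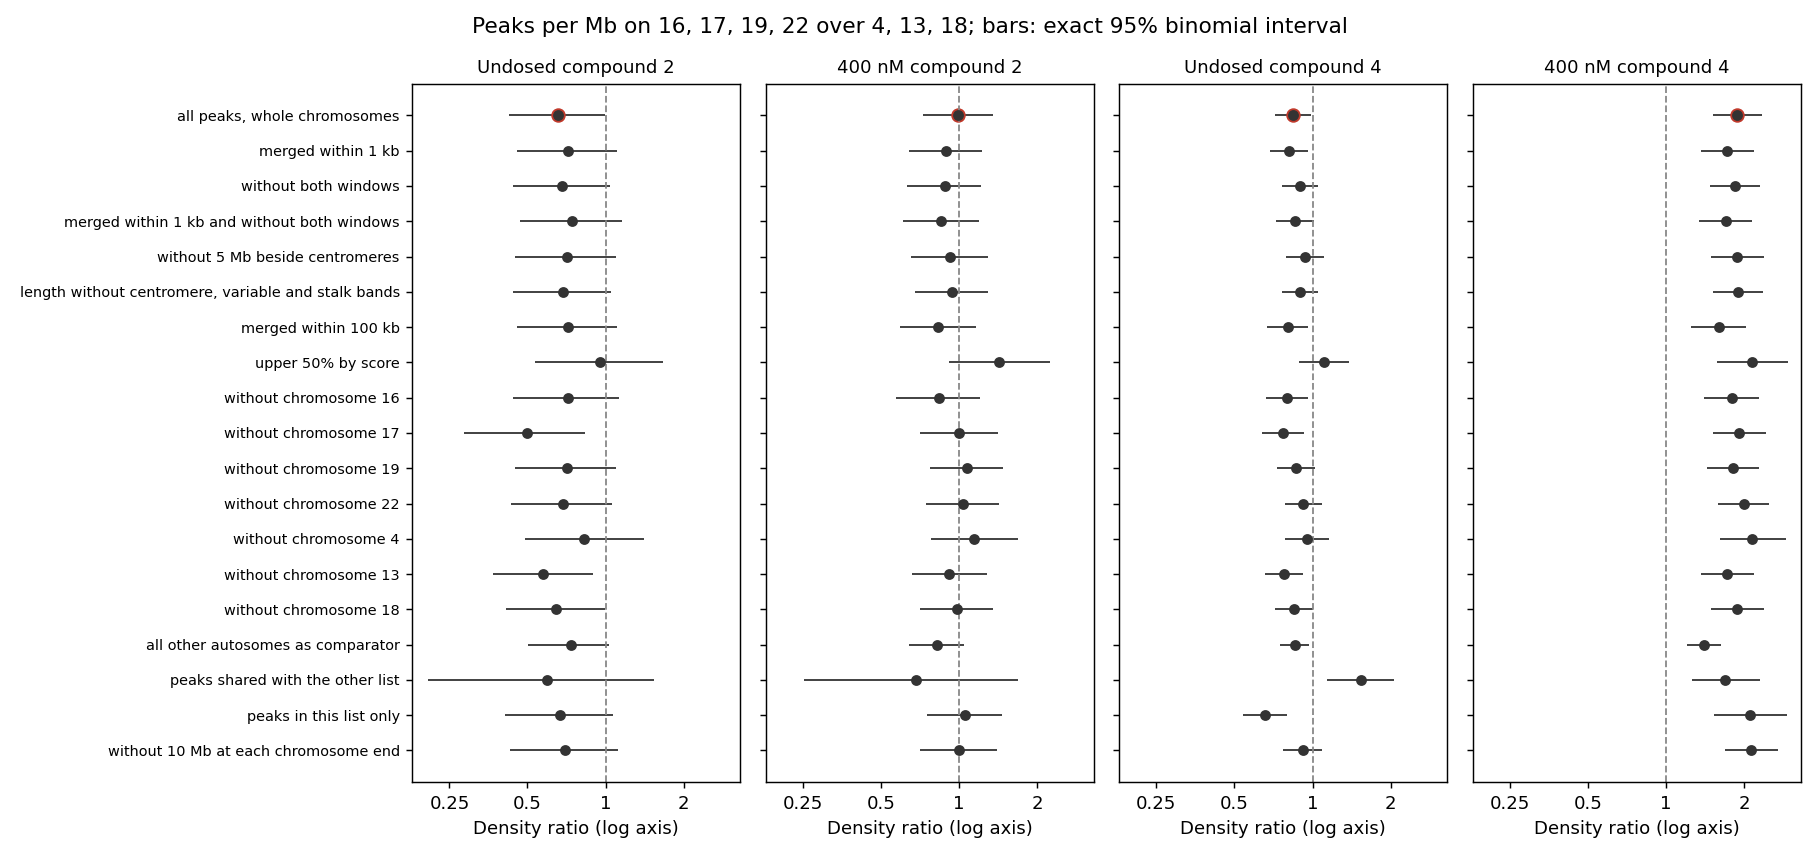
Density ratio, as peaks per Mb on chromosomes 16, 17, 19 and 22 over that on 4, 13 and 18 (log axis), for each list under the setting named at the left, with exact 95% binomial intervals; the red-edged point is the value over all peaks. The 400 nM compound 4 ratio lies between 1.41 and 2.15 in the alternatives, above 1 in each, while most intervals of the other lists hold 1.

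Single chromosomes followed the same pattern in the 400 nM compound 4 list. Chromosome 19 had 49 peaks (0.829 per Mb, exact 95% Poisson interval 0.613 to 1.10), chromosome 16 had 72 (0.797, 0.623 to 1.004), chromosome 17 had 56 (0.690, 0.521 to 0.896) and chromosome 22 had 27 (0.526, 0.347 to 0.766). The gene-poor chromosomes had 0.434 (4), 0.384 (18) and 0.304 (13) peaks per Mb. The values of the sets did not overlap, and chromosomes 19, 16, 17 and 22 ranked 1, 2, 3 and 11 of 22 autosomes. The interval of chromosome 22 overlapped those of the gene-poor chromosomes, such as chromosome 4 (0.346 to 0.538). The first place of chromosome 19 rested on the window from 24 to 29 Mb, which held 15 of its 49 peaks. Outside it the chromosome had 0.628 peaks per Mb, below chromosomes 16, 17, 20 (0.682) and 6 (0.643) and above each gene-poor one. Neighbours in this order had overlapping intervals.

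In the undosed compound 4 list none of the same chromosomes was among the first 7 of the order. Chromosome 17 had 89 peaks (1.10 per Mb), chromosome 16 had 91 (1.01), chromosome 19 had 48 (0.812) and chromosome 22 had 27 (0.526). They ranked 8, 13, 19 and 21 of 22, and chromosomes 4, 18 and 13 had 1.19, 1.10 and 0.851 peaks per Mb, so the sets overlapped. Chromosome 22 thus had 27 peaks in both lists of compound 4, although the undosed list was longer. The densities of single chromosomes use whole lengths, unsequenced stretches included, and the part of this in the ranks of either list was not tested.

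For compound 2, chromosome 17 carried the largest number of undosed peaks among the gene-dense chromosomes, at 16 (0.197 per Mb, rank 4 of 22). Chromosomes 16, 22 and 19, with 9, 5 and 5 peaks, ranked 20, 21 and 22 in that list. In its 400 nM list chromosome 16 led with 32 peaks (0.354 per Mb, rank 3), ahead of chromosome 17 with 21 (0.259), chromosome 22 with 11 (0.214) and chromosome 19 with 11 (0.186, rank 21). Of the 32 peaks on chromosome 16, 13 lay in the window from 33 to 47 Mb. Outside that window the chromosome had 0.249 peaks per Mb.

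Across 22 autosomes, the 400 nM compound 4 peaks per Mb were higher where protein-coding genes per Mb were higher, with Pearson's r = 0.715 and Spearman's rho = 0.750. These values describe chromosomes of 1 list, with unsequenced stretches counted in the lengths, and have no p. Without chromosomes 17 and 19, the farthest from the median gene density, r was 0.678 over the rest. Without the windows on chromosomes 16 and 19, r was 0.473 and rho 0.731. The r and rho of the other lists were -0.345 and -0.138 (undosed compound 2), -0.158 and -0.0186 (400 nM compound 2) and -0.176 and -0.193 (undosed compound 4).

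**Figure D2:**
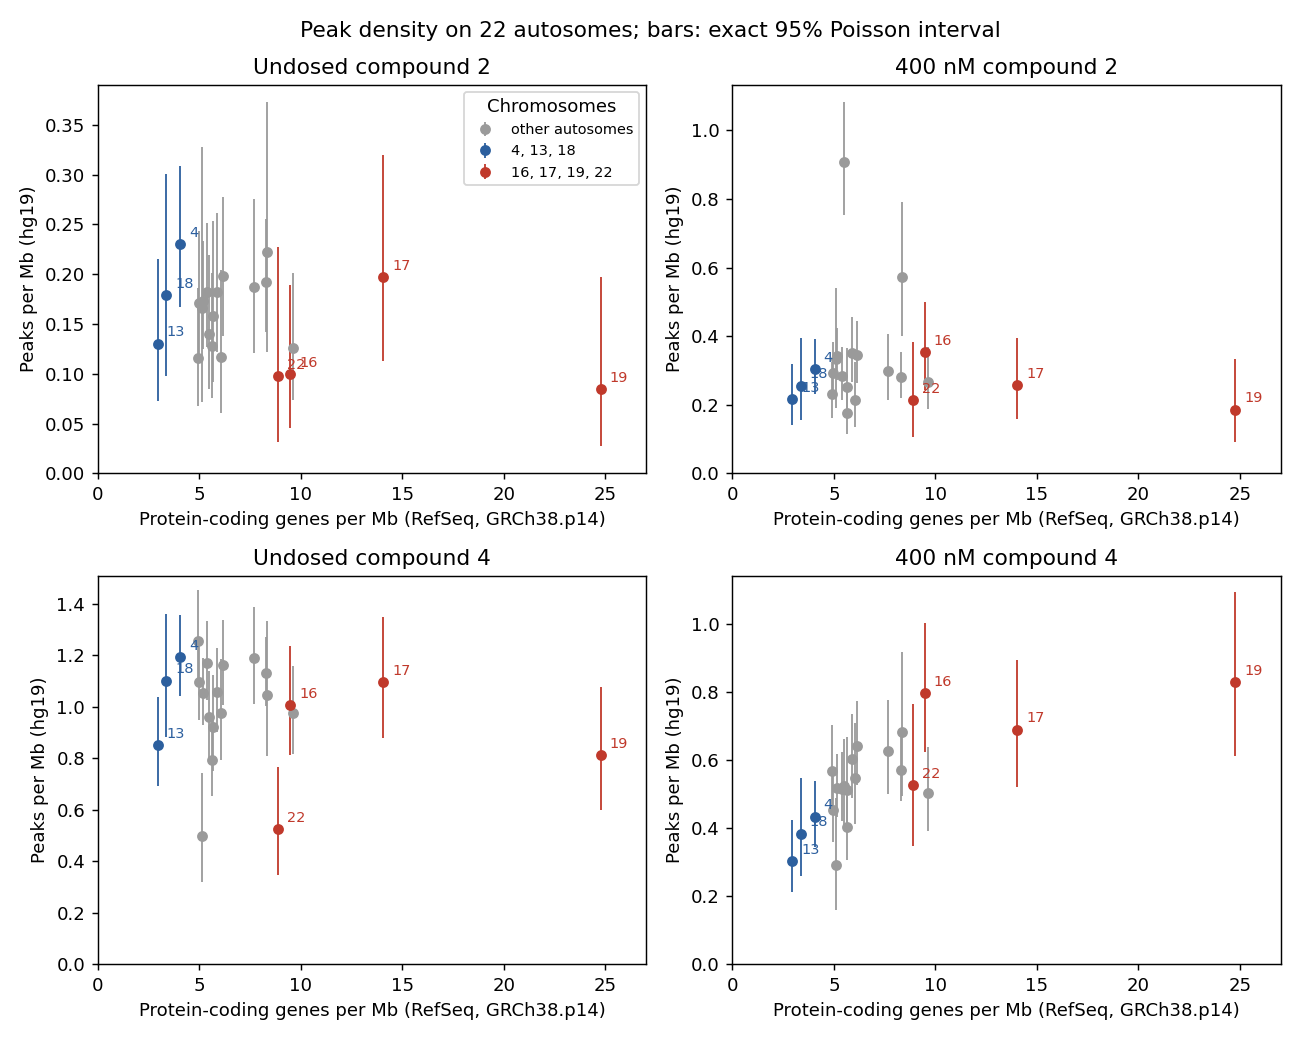
Peaks per Mb (hg19) on each of 22 autosomes against protein-coding genes per Mb (RefSeq, GRCh38.p14), 1 panel per list, with exact 95% Poisson intervals; red and blue points are the gene-dense and gene-poor chromosomes. The red points lie above the blue ones in the 400 nM compound 4 panel and mix with or lie below them in the others.

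The second question was whether the compounds differed in how their peaks split over the chromosome sets. At 400 nM, 204 of 352 compound 4 peaks on the 7 chromosomes (58.0%, exact 95% interval 52.6 to 63.2%) and 75 of 178 compound 2 peaks (42.1%, 34.8 to 49.7%) were on the gene-dense ones. The odds ratio was 1.89 and passed Fisher's exact test (two-sided, adjusted p = 0.0013 over 2 pairs of lists). Among peaks scoring in the upper 50% of their list the odds ratio was 1.51 and did not pass (Fisher's exact test, adjusted p = 0.287). In the undosed lists the shares were 38.2% (34.5 to 42.0%) for compound 4 and 32.4% (23.7 to 42.1%) for compound 2, and the odds ratio of 1.29 did not pass (Fisher's exact test, adjusted p = 0.284).

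The third question was whether the gene-dense peaks of a list were found again in the other list of their compound. In the undosed compound 4 list, 99 of 255 gene-dense peaks overlapped a 400 nM peak by at least 1 bp (38.8%, exact 95% interval 32.8 to 45.1%), against 88 of 412 gene-poor peaks (21.4%, 17.5 to 25.6%) and 28.7% of the whole list. The difference of 17.5 percentage points passed Fisher's exact test (adjusted p = 6.02e-06 over 4 lists). This test is not separate from the density result. The 400 nM list had 204 gene-dense peaks to meet the 255 undosed ones, but 148 gene-poor peaks to meet 412. Seen from the 400 nM list, 102 of 204 gene-dense peaks (50%, 42.9 to 57.1%) and 82 of 148 gene-poor peaks (55.4%, 47.02 to 63.6%) overlapped an undosed peak, against 54.8% of the list, and this difference did not pass (Fisher's exact test, adjusted p = 0.511).

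Shared and unshared peaks of the undosed compound 4 list had ratios on either side of 1. Its peaks shared with the 400 nM list were 1.53 times as dense on the gene-dense chromosomes as on the gene-poor ones (1.14 to 2.07), and its unshared peaks 0.656 times as dense (0.539 to 0.797). In the 400 nM list the ratio was 1.70 (1.26 to 2.30) for shared and 2.11 (1.53 to 2.92) for unshared peaks. These splits were chosen after seeing the data. A shared undosed peak is by definition also a place of a 400 nM peak. The ratios of shared and unshared undosed peaks are thus not separate from the density result of the 400 nM list. The authors' cutoff for each list was not given in the sources used here, and its part in these differences was not tested.

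The chromosomes differed in how much they shared. On chromosome 16, 45 of 91 undosed compound 4 peaks (49.5%) and 47 of 72 peaks at 400 nM (65.3%) were shared. On chromosome 22 these were 14 of 27 in both lists (51.9%), and on chromosome 17 they were 30 of 89 (33.7%) and 29 of 56 (51.8%). On chromosome 19 they were 10 of 48 (20.8%) and 12 of 49 (24.5%), the lowest shares among the 4 chromosomes in both lists. Chromosome 19 thus had 48 and 49 peaks at mostly different places, and outside the window from 24 to 29 Mb it had 46 undosed and 34 at 400 nM.

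For compound 2, 7 of 35 undosed gene-dense peaks (20%, 8.44 to 36.9%) were shared, against 21.9% of gene-poor peaks and 26.7% of the whole list. At 400 nM 8 of 75 were shared (10.7%, 4.72 to 19.9%), against 15.5% and 12.8%. Neither difference from the gene-poor peaks passed Fisher's exact test (adjusted p = 1 undosed and 0.511 at 400 nM).

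**Figure D3:**
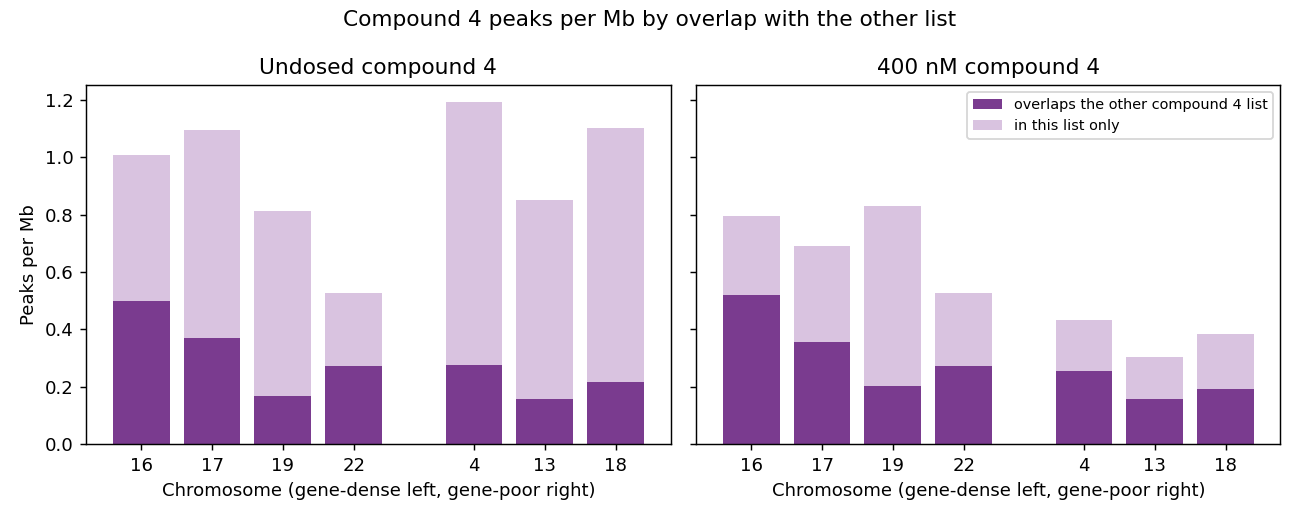
Compound 4 peaks per Mb on each gene-dense and gene-poor chromosome, stacked by whether a peak overlaps the other compound 4 list, with 1 panel per list. On chromosomes 16, 17 and 22 the shared part is 0.273 to 0.520 per Mb in both panels, on chromosome 19 it is 0.169 undosed and 0.203 at 400 nM, and on chromosomes 4, 13 and 18 it is 0.156 to 0.277 in both panels; the unshared part on chromosomes 4, 13 and 18 is 0.695 to 0.915 per Mb undosed and 0.148 to 0.192 at 400 nM.

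Peaks common to the compounds were few, on these chromosomes as in the whole lists. Of the undosed compound 2 peaks, 2 of 35 overlapped an undosed compound 4 peak (5.71%, exact 95% interval 0.700 to 19.2%), where the whole list had 10.5%. They lay at 16p12.2 (chromosome 16, 22022786 to 22023401) and 19q12 (chromosome 19, 32233292 to 32233907) and ranked 375 and 399 by score. The compound 4 peaks there ranked 1622 and 2992, and were 2 of 255 (0.784%), against 1.82% of that list. At 400 nM none overlapped. There were 0 of 75 compound 2 peaks (exact 95% interval 0 to 4.80%, against 0.325% of the list) and 0 of 204 compound 4 peaks (0 to 1.79%, against 0.190%).

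Some gene-dense regions of compound 4 had high scores in both of its lists. Picked for standing within the top 100 by score in each list, they were 10 intervals, with 3 on chromosome 16, 4 on chromosome 17, 1 on chromosome 19 and 2 on chromosome 22. Such intervals were sought on these chromosomes only, so their number is a listing and is not set against that on other chromosomes. The score is the authors' own, on a scale that was not given, and was compared only within a list. The interval at 16q12.1 (chromosome 16, 52058504 to 52059306) had the best undosed rank among them, at 16 (score 505), and ranked 28 at 400 nM (score 153), with 2 overlapping peaks in each list. That at 22q12.3 (chromosome 22, 33484971 to 33485777) also had 2 peaks in each list and ranked 29 undosed and 23 at 400 nM (scores 424 and 161), the best rank of the 10 at 400 nM.

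A second interval in 22q12.3 (chromosome 22, 37227457 to 37228060) ranked 23 and 50 in the undosed and 400 nM lists, and a second in 16q12.1 (chromosome 16, 47976358 to 47976621) ranked 32 and 31. The interval at 16p11.2 (chromosome 16, 31024286 to 31024972) ranked 43 and 49. On chromosome 17 the intervals were at 17p12 (11140644 to 11141247, ranks 78 and 46), 17q21.31 (41944647 to 41945250, ranks 73 and 60, and 44342439 to 44342716, ranks 84 and 45) and 17q22 (54955252 to 54955855, ranks 50 and 75). The only one on chromosome 19 was at 19p13.3 (3299184 to 3299787, ranks 57 and 70). None of these intervals overlapped a peak of the paired compound 2 list, and over the whole compound 4 lists such overlap was 1.82% undosed and 0.190% at 400 nM.

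Compound 2 had 2 such intervals on these chromosomes, the only ones searched. That at 17q21.31 (chromosome 17, 42053417 to 42053992) ranked 4 undosed and 64 at 400 nM, and that at 19q13.42 (chromosome 19, 55414458 to 55415140) ranked 6 and 41. Its next undosed peak, at 17q25.1 (chromosome 17, 74411852 to 74412467, rank 12), had no 400 nM peak. At 400 nM the 3 highest gene-dense peaks were at 17p13.2 (chromosome 17, 3727385 to 3727960, rank 15), which overlapped the undosed peak ranked 210, and in 16q11.2 (chromosome 16, 46441150 to 46441725 and 46499829 to 46500404, ranks 36 and 37), which overlapped none.

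Gene-dense peaks as a set had higher median scores than gene-poor ones in each list. Their median scores in the order undosed and 400 nM compound 2, undosed and 400 nM compound 4 were 49.6, 28.0, 60.5 and 33.5, against 43.9, 25.7, 52.8 and 30.2 for gene-poor peaks. They lay above the median score of their list for 65.7%, 58.7%, 58.4% and 53.4% of peaks, and gene-poor ones for 45.2%, 40.8%, 44.4% and 46.6%. Among the 100 highest-scoring peaks of each list, 10, 12, 17 and 17 were gene-dense and 11, 6, 7 and 4 gene-poor. Of all peaks of each list, 7.20%, 8.13%, 8.30% and 12.9% were gene-dense, and 73 of 486, 103 of 923, 412 of 3074 and 148 of 1581 were gene-poor. Adjoining peaks were counted separately here. On chromosome 19 alone, 40%, 54.5%, 47.9% and 46.9% of peaks lay above the list median in the same order, under 50% in 3 of 4 lists.

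The density ratio accordingly changed along the score. In the undosed compound 4 list it was 1.65 (1.15 to 2.37) in the highest quintile of the list by score and 0.560 (0.375 to 0.820) in the lowest. In the 400 nM compound 2 list it went from 2.34 (1.16 to 4.89) to 0.593 (0.252 to 1.29), and in the undosed one from 1.12 (0.409 to 2.96) to 0.389 (0.0934 to 1.24). In the 400 nM compound 4 list it stayed between 1.90 and 2.47 in the upper 4 quintiles and was 1.24 (0.739 to 2.08) in the lowest. With peaks merged within 1 kb, the highest and lowest quintiles had 1.59 and 0.560 for undosed and 1.82 and 1.24 for 400 nM compound 4. The upper 50% of the undosed compound 4 list, close in length to the whole 400 nM list, had a ratio of 1.11 (0.888 to 1.39) that did not pass (exact binomial test, adjusted p = 0.461). The scores, ranks and quintiles are a description without a test.

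**Figure D4:**
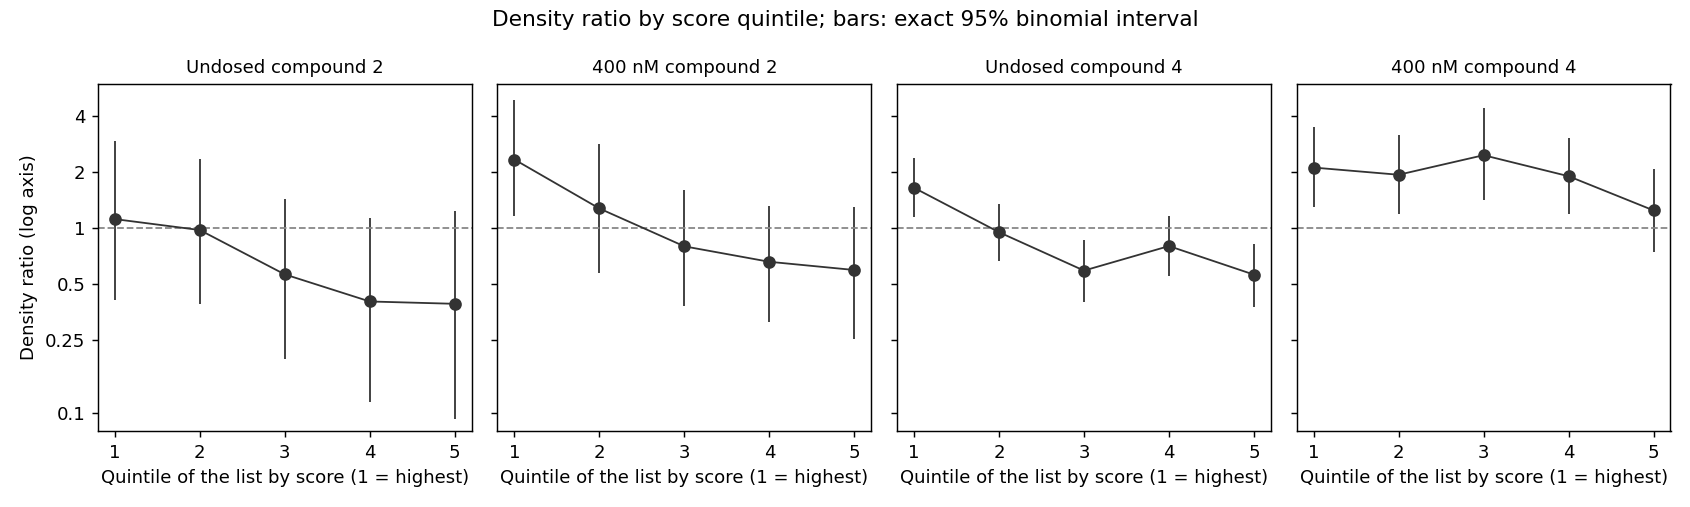
Density ratio of gene-dense over gene-poor chromosomes (log axis) in each quintile of a list, from the highest scores at the left, with exact 95% binomial intervals and 1 panel per list. The ratio is lower in the lowest than in the highest quintile in each panel, and the 400 nM compound 4 points all lie above 1.

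Along the gene-dense chromosomes, peaks were set against Giemsa bands, the stripes seen on stained chromosomes. Unstained bands are known to be richer in genes and in G and C, and dark bands, whose classes gpos75 and gpos100 are the darkest, to be richer in A and T. The share of compound 4 peaks in unstained bands was close to the share of length there. Unstained bands made up 43.5% of their length and held 45.1% of the 400 nM compound 4 peaks (exact 95% interval 38.1 to 52.2%) and 41.2% of the undosed ones (35.1 to 47.5%). Class gpos75, with 8.65% of the length, held 16.9% of the undosed compound 4 peaks (12.5 to 22.03%) and 11.3% of those at 400 nM (7.28 to 16.4%).

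In peaks per Mb, the undosed compound 4 list had 0.855 in unstained bands, 1.28 in gpos50 and 1.76 in gpos75 bands of the gene-dense chromosomes, and the 400 nM list had 0.749, 0.779 and 0.943. At 400 nM each band class had more compound 4 peaks per Mb on the gene-dense than on the gene-poor chromosomes, with 0.749 against 0.471 in unstained, 0.943 against 0.523 in gpos75 and 1.29 against 0.385 in gpos100 bands. Class gpos100 is a single band on the gene-dense chromosomes, 16q21, so its values there are those of that band. The exact intervals of the sets overlapped in some classes, gpos25 and gpos75 among them. In the centromere bands, which are bands of their own in this scheme, it had 0.857 against 0.0885, with 14 of its 15 gene-dense peaks there in 19q11. For compound 2, gpos100 bands held 6 of 35 undosed gene-dense peaks (17.1%, 6.56 to 33.6%) in 3.298% of the length, and 3 of 75 at 400 nM (4%, 0.833 to 11.2%). On the gene-poor chromosomes, with 21.6% of the length, they held 21.9% undosed (13.1 to 33.1%) and 35.9% at 400 nM (26.7 to 46.0%).

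**Figure D5:**
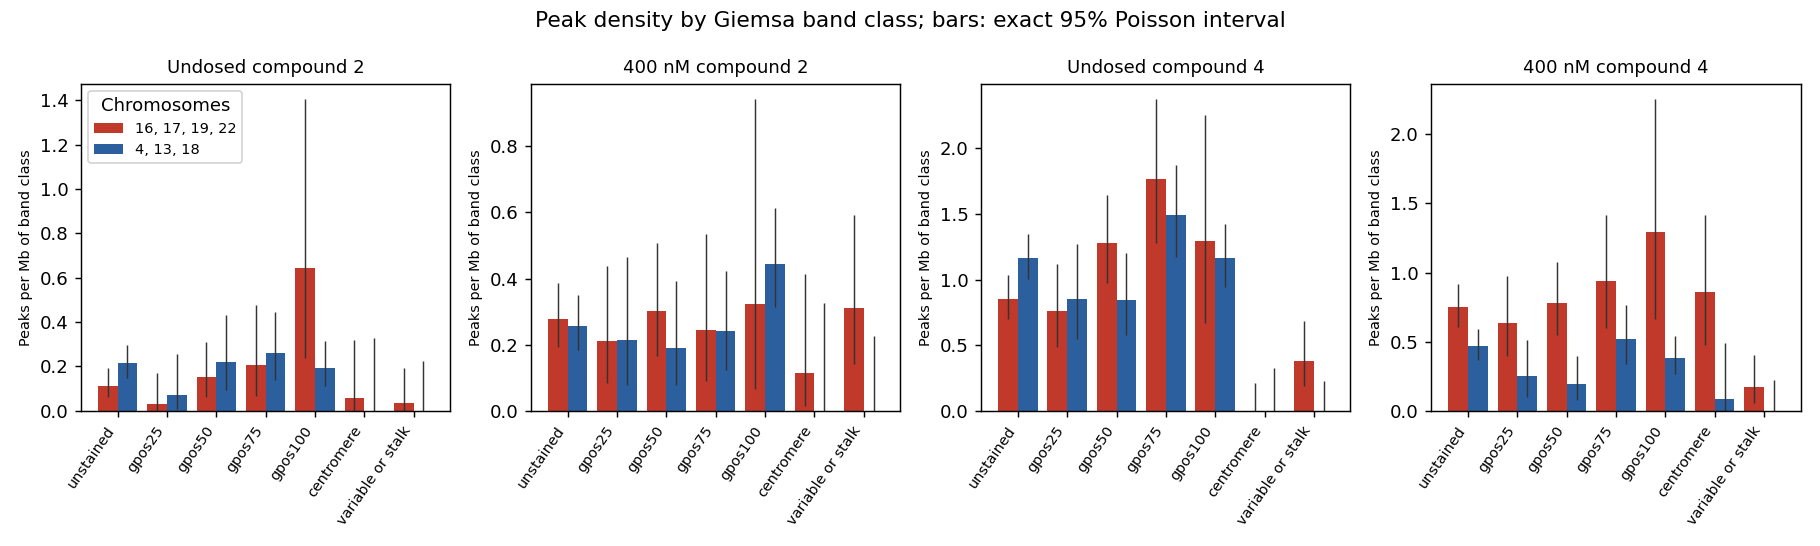
Peaks per Mb of each Giemsa band class on the gene-dense (red) and gene-poor (blue) chromosomes, 1 panel per list, with exact 95% Poisson intervals. In the 400 nM compound 4 panel the red bars exceed the blue ones in unstained and in each gpos class.

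Single bands were ranked by peaks per Mb, and the first 3 of each list are given. For undosed compound 4 they were 17q23.1 (2 peaks, 2.86 per Mb), 16q12.1 (15 peaks, 2.68 per Mb) and 19q13.11 (8 peaks, 2.58 per Mb). The 2 peaks of 17q23.1 adjoined and formed 1 region after merging within 1 kb, so its rank rests on 1 place, while 16q12.1 had 11 regions. At 400 nM they were 19q11 (14 peaks, 6.67 per Mb), 17q23.1 (2 peaks, again 1 region) and 16p12.2 (8 peaks, 2.67 per Mb). Band 16q12.1 still had 13 compound 4 peaks at 400 nM, and compound 2 had 0 and 1 there.

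For undosed compound 2 the bands were 17q21.33 (2 peaks in 1 region), 16q21 (6 peaks, 0.645 per Mb) and 17p13.3 (2 peaks), and at 400 nM they were 16q24.2 (3 peaks), 16q13 (1 peak) and 22q12.3 (6 peaks, 1.11 per Mb). Bands 16q21 and 22q12.3 had peaks in every list, with 6 and 3 (16q21) and 3 and 6 (22q12.3) peaks in the undosed list and the 400 nM list of compound 2. For compound 4 they were 12 and 12 (16q21) and 12 and 9 (22q12.3).

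Groups of close-lying peaks stood next to the centromeres of chromosomes 16 and 19. Of the 15 peaks of the 400 nM compound 4 list on chromosome 19 from 24 to 29 Mb, 14 lay within 89.4 kb (27799355 to 27888757) and formed 12 regions after merging within 1 kb. Their best rank was 440, and none overlapped an undosed compound 4 peak. The undosed compound 4 list had 2 peaks in this window, at other places, and compound 2 none. The 400 nM compound 2 list instead had 2 groups on chromosome 16, with 6 peaks in 13.5 kb (34183235 to 34196773) and 7 in 59.3 kb (46441150 to 46500404), against 1 undosed compound 2 peak in the window. Compound 4 had 1 undosed peak and 2 at 400 nM there. Stretches beside centromeres hold repeats, where reads are hard to place, and the part of this in the groups was not tested.

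Towards the ends of the gene-dense chromosomes, compound 4 had fewer peaks than their length would give. The 10 Mb at each end made up 28.4% of their length and held 15.7% of undosed compound 4 peaks (exact 95% interval 11.4 to 20.7%) and 14.7% of those at 400 nM (10.1 to 20.3%). For compound 2 the shares were 22.9% (10.4 to 40.1%) undosed and 22.7% (13.8 to 33.8%) at 400 nM. On the gene-poor chromosomes, where the ends made up 15.6%, compound 4 had 8.50% undosed and 11.5% at 400 nM.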

How the data were processed

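Peaks came from 4 lists of 4 columns (chromosome, start, end, score), deposited by the authors as 2 lists per compound, of which 1 names a dose. Build hg19 and the tools CASAVA 1.8.2, Bowtie 1.0 and HOMER are named per the submitters' processing notes. The sources used here do not give settings, cutoffs, pooling of libraries or the use of the input. The score in column 4 is as deposited, on an unstated scale. Starts, taken as 0-based, are printed 1-based. A peak was placed by its midpoint.

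Lengths came from GenomeInfoDb 1.38.1 and bands from circlize 0.4.16. Densities were compared with exact binomial tests, and shares with Fisher's exact test, all two-sided, with Benjamini-Hochberg adjustment within each family and a threshold of 0.05. Lengths include unsequenced stretches. Regions named are, for each list, the 3 gene-dense peaks with the highest scores and the 3 bands densest in peaks, besides intervals in the top 100 of both lists of a compound and peaks common to the compounds. The chromosomes and these rules were chosen with earlier results of these data known. Lists were simulated with as many peaks as each list had on the 7 chromosomes. These were 108, 178, 667 and 352, in the order of the density results from undosed compound 2 to 400 nM compound 4. On 200 simulated lists without an effect the density test made 8, 7, 12 and 10 calls. With a true ratio of 2 it made 190, 200, 200 and 200. Simulated peaks were independent and evenly dense within a chromosome set, so these calls do not show how the test behaves on grouped peaks. The work used Python 3.11.15, numpy 2.4.6, scipy 1.17.1 and pandas 2.3.3. No sequence is printed, because no genome of the build was used.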

Additional observations from a re-analysis of the deposited data

Results flagged for a closer look

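The split over gene-dense and gene-poor chromosomes differed between the compounds by a test in 1 of 2 pairs of lists. At 400 nM the odds of a gene-dense place were 1.89 times as high for compound 4 peaks as for compound 2 peaks (Fisher's exact test, adjusted p = 0.0013). The test counts peaks, not cultures, and each list ended at its own score minimum.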

How the results depend on the processing

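The 400 nM compound 4 density ratio stayed above 1 and past the threshold in 18 of 18 alternatives (1.41 to 2.15, highest adjusted p = 0.00169, exact binomial test). The alternatives re-use the same peaks. Shared peaks, unshared peaks and the removal of chromosome ends were chosen after seeing the data, and the highest adjusted p is that of the shared peaks. The undosed compound 4 ratio turned above 1 in the upper 50% by score (1.11, without a call). It also passed above 1 in shared peaks (1.53, exact binomial test, adjusted p = 0.00761). That ratio passed below 1 when merged within 1 kb (0.812) or 100 kb (0.801), without chromosome 16 (0.798), 17 (0.771) or 13 (0.775), against all other autosomes (0.854) and in unshared peaks (0.656). The shared and unshared values are tied to the 400 nM list, since sharing is defined by its peaks. The undosed compound 4 ratio did not pass without centromeres and 5 Mb beside them (0.936). It also did not pass with the centromere, variable and stalk bands left out (0.897). The undosed compound 2 ratio passed without chromosome 17 (0.498) or 13 (0.576). The 400 nM compound 2 ratio, at 0.993, turned above 1 without a call in the upper 50% by score (1.43), without chromosome 17 (1.004), 19 (1.07), 22 (1.04) or 4 (1.14), in unshared peaks (1.05) and without the chromosome ends (1.002). The causes were not tested. The odds ratio between compounds at 400 nM no longer passed in the upper 50% by score (1.51). The overlap difference of undosed compound 2, at -1.92 points, turned to 3.80 points with midpoints within 1 kb and 1.84 in the upper 50% by score, without a call. That of undosed compound 4 passed in 5 of 5 alternatives (12.6 to 20.4 points). No paired analysis was possible because the lists carry no replicate numbers. Read depth is unknown.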

Other observations

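Spacing along the gene-dense chromosomes also differed between lists. The median distance from a peak to the nearest peak of its list was 147 kb for 400 nM compound 4 on the gene-dense chromosomes and 621 kb on the gene-poor ones, while for undosed compound 4 it was 184 and 223 kb. Of 204 gene-dense peaks in the 400 nM compound 4 list, 64 adjoined another within 1 kb, forming 32 regions of 2 peaks, against 24 of 148 on the gene-poor chromosomes. Of 84 bands on chromosomes 16, 17, 19 and 22, 57 held a 400 nM and 58 an undosed compound 4 peak, and 38 and 24 held one of compound 2. Set against genes in place of length, the gene-dense chromosomes had fewer peaks in each list, at 52.0 per 1000 protein-coding genes against 107 for 400 nM compound 4 and 65.0 against 299 for undosed compound 4. Peaks of another width than the common one of their list were 22 of 255 gene-dense and 8 of 412 gene-poor peaks in the undosed compound 4 list. In the other lists they were 1 of 35 and 0 of 73 (undosed compound 2), 0 of 75 and 0 of 103 (400 nM compound 2) and 3 of 204 and 0 of 148 (400 nM compound 4). The share over whole lists was not computed, and the relation of width to score was not tested.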
